A study of Mus musculus with 6 samples.

Results

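A total of 47 genes of the cell cycle and DNA replication were followed on 6 Illumina MouseWG-6 arrays of bone marrow-derived DCs (BMDCs). The genes were chosen by name and role, and all probes assigned to them in the annotation used here were taken. That annotation covers only the probes in the authors' normalized values (19293 of 45281 on the array). A gene without a named probe may therefore still have one on the array. Of the 47 genes, 38 had a named probe (69 probes). A probe was tested where its detection p, which compares its signal with the negative controls of the array, was under 0.05 on at least 3 of the 6 arrays. This left 37 genes and 66 probes, of 8921 genes and 16071 probes tested on the whole array. Another 9 genes had no named probe in the annotation used here and were not analysed, namely *Ccna2*, *Ccnb1*, *Ccnb2*, *Gmnn*, *Bub1*, *Ube2c*, *Kif20a*, *Cenpe* and *Mki67*. The probe of *Ccne2* was detected on 2 arrays and was not tested. The list therefore lacked the A and B type cyclins and Ki-67, the usual protein marker of cycling cells. For 18 genes with more than 1 tested probe, the brightest on average was taken, and each of the 37 chosen probes was detected on all 6 arrays.

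The cells came from male C57BL/6 mice. Bone marrow was grown for 10 days with 20 ng/ml GM-CSF, and the immature DCs were then kept for a further 6 h in 5 ng/ml GM-CSF with no other cytokine (control, 3 arrays) or with 20 ng/ml IL-4 (3 arrays). All groups thus shared the GM-CSF, and the cultures were not described as sorted, so that each array reads the whole culture. Arrays of each condition carry the numbers 1 to 3. Values are normalized log2 bead signals, fold changes are IL-4 against control on the log2 scale, and adjusted p-values are from limma with Benjamini-Hochberg adjustment over all 16071 probes. A level can be compared between arrays for 1 probe, but not between probes. The treatment labels were checked on a pair of genes known to respond to IL-4. *Ccl24*, which encodes eotaxin-2, lay at 5.21, 5.11 and 4.68 in control and at 10.91, 9.75 and 10.35 with IL-4 (log2 fold change 5.34, adjusted p = 2.02e-04). *Retnla*, which encodes RELMα, lay at 10.42, 10.86 and 10.48 in control and at 12.42, 12.39 and 12.38 with IL-4 (log2 fold change 1.81, adjusted p = 0.00676). The median raw signal of the arrays ran from 83.85 to 121.3, and 14934 to 17185 of 45281 probes were detected per array. Genes listed as DC markers were present, with *Cd74*, *H2-Ab1*, *Itgax* and *Zbtb46* among 9 of 10 tested. Of 10 listed macrophage and monocyte markers, 9 were also tested. Both replicate 2 arrays stood apart from the other 4 in neutrophil, mast cell and macrophage markers, so the IL-4 comparison is also given without them.

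The cell cycle is driven by cyclin-dependent kinases (CDKs), which are switched on by cyclins and held back by inhibitor proteins such as p21 and p27. In G1 phase, D type cyclins relieve the block that the retinoblastoma protein places on E2F factors, after which the MCM helicase is loaded at origins and DNA is copied. In mitosis, Aurora and Polo-like kinases build the spindle, and the anaphase-promoting complex with Cdc20 then releases the sister chromatids. Cultures of bone marrow in GM-CSF hold both dividing precursors and differentiated myeloid cells that have left the cycle. The arrays read RNA of all cells in a culture, so that fewer dividing cells and less cell cycle RNA per dividing cell cannot be told apart in any value below.

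Genes of replication and mitosis are known to be controlled through short promoter elements, the E2F site, the CCAAT box bound by NF-Y and the cell cycle genes homology region (CHR). These letters were searched for on both strands of the RefSeq promoter windows (mouse build GRCm38.p6, 250 bases before to 50 after the gene start, the first listed window of each gene). The letters taken for the E2F site were TTCGCGC in the first form, with TTGGCGC and also TTCCCGC as the other forms. Those for the CCAAT box were CCAAT. The CHR was searched as TTTGAA and, in its other form, TTCGAA. Windows were found for 35 of the 47 genes. An E2F site was held by 11 of the 35 (31.4%), against 8.21% of the 27025 promoters in the table. A CCAAT box was held by 24 (68.6%, against 37.9%) and a CHR by 16 (45.7%, against 19.4%). The elements were spread unevenly over the roles. The E2F letters stood in 6 of 10 windows of replication genes and in 0 of 8 windows of the mitotic kinase and checkpoint group, while the CHR letters stood in 6 of those 8. A match is a run of letters in a window and not a shown binding site.

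The 250 bases before the start are printed for the 5 genes below, with all matches in capitals. *Mcm5* stands for the replication genes and *Cdc20* for the mitotic genes, since these had the lowest IL-4 values of their groups. *Cdk1* is the kinase that starts mitosis, *Plk1* had the widest range between replicates, and *Cdkn1a*, the inhibitor p21, is the contrast with no match.
Mcm5 promoter, chr8:75109259-75109508, plus strand: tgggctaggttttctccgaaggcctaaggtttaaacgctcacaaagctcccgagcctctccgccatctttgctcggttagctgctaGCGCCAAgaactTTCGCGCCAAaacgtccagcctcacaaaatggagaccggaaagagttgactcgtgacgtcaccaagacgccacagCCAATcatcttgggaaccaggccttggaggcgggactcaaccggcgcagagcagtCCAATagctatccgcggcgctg
Cdk1 promoter, chr10:69352913-69353162, minus strand: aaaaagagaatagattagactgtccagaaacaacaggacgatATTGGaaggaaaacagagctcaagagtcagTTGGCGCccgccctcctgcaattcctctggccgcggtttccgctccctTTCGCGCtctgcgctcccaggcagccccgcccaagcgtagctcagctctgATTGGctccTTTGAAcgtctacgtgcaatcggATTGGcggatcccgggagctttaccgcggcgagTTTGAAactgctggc
Cdc20 promoter, chr4:118437344-118437593, minus strand: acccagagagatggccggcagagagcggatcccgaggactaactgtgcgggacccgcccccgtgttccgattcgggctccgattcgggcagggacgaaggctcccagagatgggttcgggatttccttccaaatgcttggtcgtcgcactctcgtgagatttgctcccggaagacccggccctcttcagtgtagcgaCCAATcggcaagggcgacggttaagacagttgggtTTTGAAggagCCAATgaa
Plk1 promoter, chr7:122159185-122159434, plus strand: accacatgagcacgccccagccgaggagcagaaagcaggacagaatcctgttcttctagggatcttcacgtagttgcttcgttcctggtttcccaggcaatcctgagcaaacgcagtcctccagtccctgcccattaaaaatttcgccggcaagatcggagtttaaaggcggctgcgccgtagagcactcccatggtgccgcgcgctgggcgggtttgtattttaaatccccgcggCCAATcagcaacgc
Cdkn1a promoter, chr17:29090729-29090978, plus strand: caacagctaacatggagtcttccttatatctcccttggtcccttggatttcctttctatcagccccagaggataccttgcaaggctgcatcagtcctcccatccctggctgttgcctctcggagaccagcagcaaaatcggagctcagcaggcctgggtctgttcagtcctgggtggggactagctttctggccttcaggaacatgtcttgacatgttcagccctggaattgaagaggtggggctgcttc
The *Mcm5* stretch holds 3 E2F matches, of which the latter pair overlap on opposite strands, and 2 CCAAT boxes. That of *Cdk1* holds all 3 elements, with 2 E2F matches, 3 CCAAT boxes and 2 CHR matches. *Cdc20* has 2 CCAAT boxes and 1 CHR between them, and *Plk1* has 1 CCAAT box in the stretch shown.

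**Figure D1:**
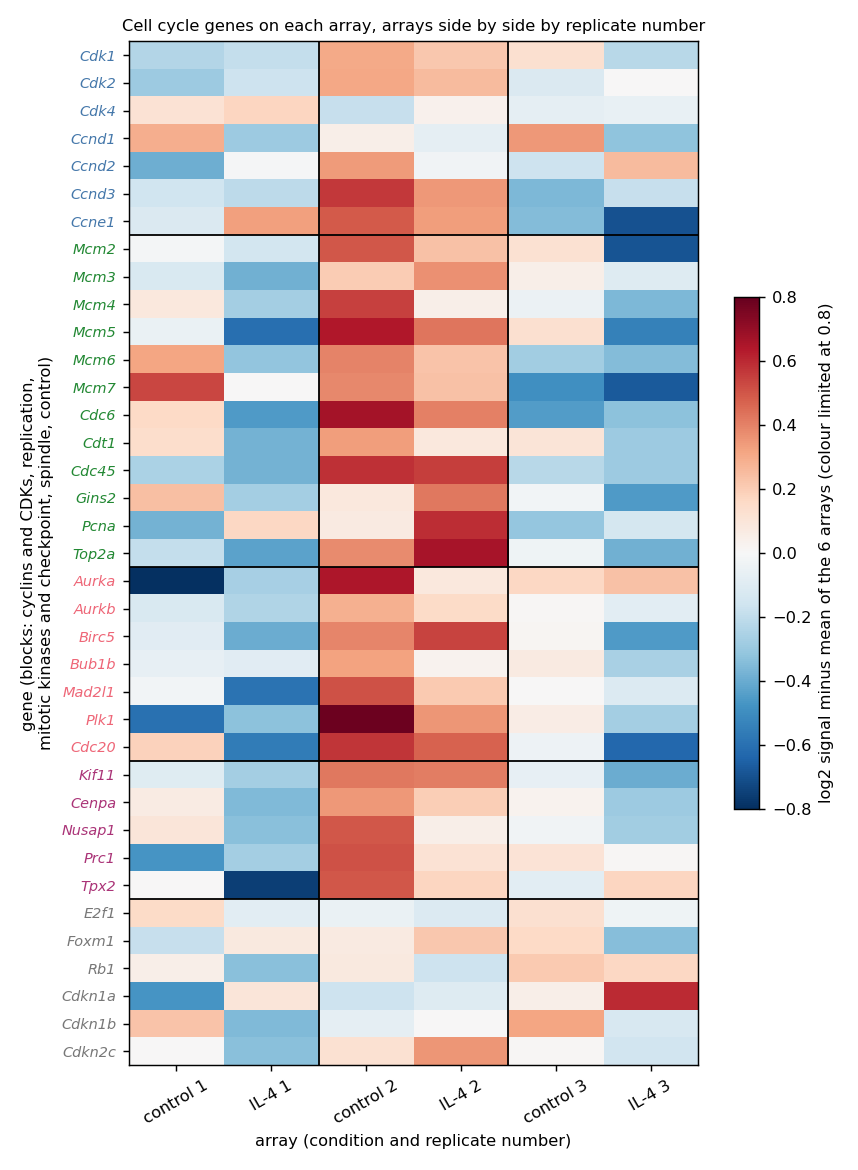
Normalized log2 signal of each of the 37 tested cell cycle genes (rows, in role order) on each of the 6 arrays (columns, side by side by replicate number), as the difference from the mean of the gene's 6 arrays; red is above and blue below that mean. The pair of replicate 2 arrays in the middle is red for most rows above the bottom block, and control replicate 2 was the highest array for 23 of the 37 genes.

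With IL-4, no cell cycle gene passed an adjusted p of 0.05, and most of them sat slightly lower. In the unpaired limma fit 0 of 37 genes were called, where 0.123% of all tested genes were (0.112% of probes). With replicate number as a block in the fit, 0 of 37 were called as well, against 2.66% of all genes (2.27% of probes). The lowest adjusted p was 0.569 without the block (*Ccnd1*) and 0.190 with it (*Mcm5*). At an unadjusted p under 0.05, 1 gene was found without the block, *Ccnd1*, which was lower (2.7%, against 8.38% of all genes in either direction and 4.13% lower). With the block there were 9, of which 7 were lower and 2 higher (24.3%, against 15.1%).

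The log2 fold change lay below 0 for 31 of the 37 genes (83.8%, against 52.8% of all genes). Its median was -0.18 over the cell cycle genes and -0.015 over all genes, or -0.12 and -0.0079 in the authors' normalized values. The values ran from -0.48 for *Cdc20* to 0.41 for *Pcna*, and 17 genes were lower with IL-4 in all 3 replicate pairs (45.9%, against 20.0% of all genes). In contrast, 3 genes, *Cdk4*, *Pcna* and *Cdkn1a*, were higher in all 3 pairs (8.11%, against 16.4%). Within pairs 1, 2 and 3 the median difference over the 37 genes was -0.24, -0.15 and -0.18, and 26, 27 and 28 genes were below 0 (50.3%, 53.2% and 51.6% of all genes). The ranges of the 2 conditions seldom separated. All 3 IL-4 arrays lay below all 3 control arrays for *Ccnd1* and *Cdt1* only (5.41%, against 7.04% of all genes), and above them for 0 genes (against 6.25%). For 35 of the 37 genes the 95% interval of the fold change stayed inside 1 log2 unit, a doubling or halving, on either side of 0 (90.6% of all genes). The exceptions were *Mcm5* and *Cdc20*. Without control replicate 2 the median was -0.05 and 23 genes were below 0. Without IL-4 replicate 2 it was -0.38 and 32 genes were below 0. These unpaired fits keep replicate 2, the highest for 31 of the 37 genes, in 1 group only. Their medians therefore also hold the difference between replicates. Without both replicate 2 arrays the median was -0.25, 28 genes were below 0 and 0 were called (0.398% of all probes). With the block, in a fit added after the data were seen, 1 was called (2.7%, against 5.24% of all probes), *Cdc20* with a log2 fold change of -0.67 (adjusted p = 0.0428). Some markers of the cell types in the culture also differed with IL-4. A change in a marker's RNA per cell and in the number of its cells cannot be told apart here. Of 9 tested DC markers 8 were above 0 (median 0.063), with *Cd74*, *Ccr7*, *Zbtb46* and *Itgax* at 0.015 to 0.063. With the block 2 were called higher (against 2.66% of all genes called in either direction). They were *Irf4* (1.08, adjusted p = 0.0101) and *Batf3* (0.91, adjusted p = 0.0104), both transcription factors. Of 9 tested macrophage and monocyte markers 5 were below 0 and 4 above (median -0.25). With the block *Cd14* was called lower (-0.93, adjusted p = 0.0267) and *Mrc1* higher (0.87, adjusted p = 0.0232). Without the block no marker was called, and the part of these cells in the cell cycle values was not tested. The genes share samples and many are transcribed together, so that their signs are not independent of each other.

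**Figure D2:**
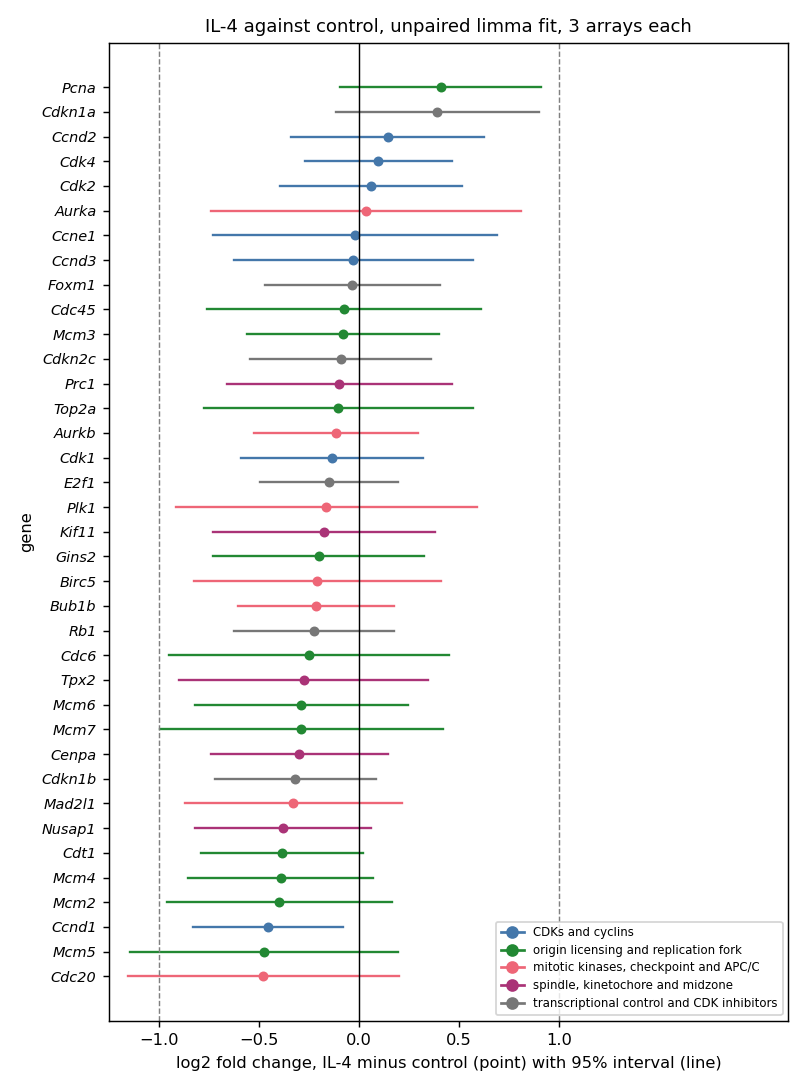
Log2 fold change of each of the 37 genes (points, coloured by role) with its 95% interval from the unpaired limma fit (lines), 3 control and 3 IL-4 arrays; dashed lines mark a doubling and a halving. Of the 37 points 31 lie left of 0, the intervals of all but *Ccnd1* cross 0, and only those of *Mcm5* and *Cdc20* pass the dashed line on the left.

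**Figure D3:**
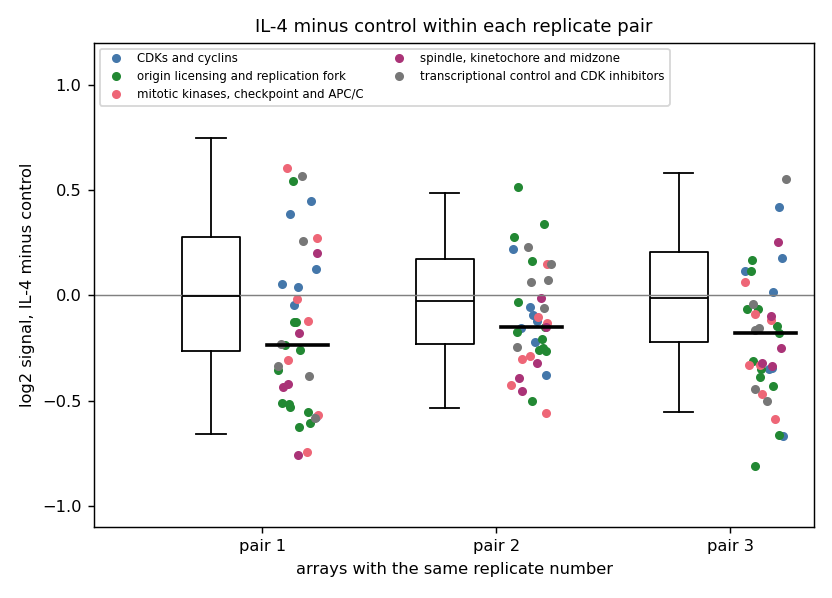
Difference in log2 signal between the IL-4 and the control array of each replicate number, as points for the 37 cell cycle genes (coloured by role, bar at their median) beside a box for all 8921 tested genes (line at the median, box at the quartiles, whiskers at the 5 and 95 percentiles). The cell cycle medians of -0.24, -0.15 and -0.18 lie below the line of the box in each pair, and most points lie inside the whiskers.

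Among the CDKs and cyclins, 7 of 11 listed genes were tested, 4 were below 0 and the median log2 fold change was -0.020. *Ccnd1* encodes cyclin D1, which couples growth signals to CDK4 and CDK6. It lay at 9.86, 9.62 and 9.91 in control replicates 1, 2 and 3 and at 9.28, 9.50 and 9.24 with IL-4, so that every IL-4 array was below every control array. This is a log2 fold change of -0.46, with a standard error of 0.17 (adjusted p = 0.569, and 0.230 with the block). Its other probes gave -0.38 and -0.14, with overlapping groups. Replicate number carried 0.125% of the variation by the brightest probe, but 3.71% and 80.0% by the others, so that this depends on the probe.

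*Ccnd2*, the cyclin D2 gene, lay at 9.88, 10.62 and 10.11 in control and at 10.27, 10.25 and 10.53 with IL-4, with overlapping groups (log2 fold change 0.14, standard error 0.21, adjusted p = 0.972). Its 3 probes disagreed in sign, from -0.18 to 0.14. *Cdk1*, the kinase of mitotic entry, lay at 7.69, 8.23 and 8.05 in control and at 7.73, 8.14 and 7.70 with IL-4. The groups overlapped and both replicate 2 arrays were the highest (log2 fold change -0.13, standard error 0.20, adjusted p = 0.972). *Ccne1*, the cyclin E1 partner of CDK2, lay at 5.54, 6.15 and 5.31 in control and at 5.99, 6.00 and 4.96 with IL-4, a log2 fold change of -0.020. *Cdk4*, *Cdk2* and *Ccnd3* had fold changes of 0.096, 0.060 and -0.029.

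Among genes of origin licensing and the replication fork, 12 of 13 were tested, 11 were below 0 and the median was -0.27, or -0.16 in the authors' values. *Mcm5*, a subunit of the MCM helicase, lay at 8.75, 9.44 and 8.92 in control (9.04 ± 0.36, SD, n = 3) and at 8.20, 9.23 and 8.26 with IL-4 (8.56 ± 0.58). Replicates 1 and 3 were lower with IL-4 by over 0.5 units, whereas the IL-4 array of replicate 2 stayed above 2 of the control arrays. The fold change was -0.48 on the log2 scale, with a standard error of 0.30 (95% interval -1.15 to 0.20, adjusted p = 0.855), and with the block the standard error was 0.16 and the adjusted p 0.190. The other helicase subunits *Mcm2*, *Mcm3*, *Mcm4*, *Mcm6* and *Mcm7* had fold changes of -0.40, -0.08, -0.39, -0.29 and -0.29. They were lower with IL-4 in all 3 pairs except for *Mcm3*, which was higher in pair 2. By its other probes *Mcm6* had values of -0.13 and 0.26, so that its direction depends on the probe.

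*Cdt1*, which loads the helicase onto origins, was at 7.38, 7.58 and 7.34 in control and at 6.86, 7.33 and 6.95 with IL-4. The groups did not overlap (log2 fold change -0.39, standard error 0.18, adjusted p = 0.722, and 0.283 with the block). *Pcna*, which encodes the sliding clamp of DNA polymerase, was the only gene of the group above 0. It lay at 5.34, 5.80 and 5.41 in control and at 5.89, 6.31 and 5.58 with IL-4, higher in each pair but with overlapping groups. Its fold change was 0.41 on the log2 scale, with a standard error of 0.22 (adjusted p = 0.804, and 0.265 with the block), but 0.16 in the values as the authors normalized them. *Top2a*, the topoisomerase of dividing cells, and *Cdc45*, a part of the active helicase, had fold changes of -0.10 and -0.08, and *Cdc6*, a licensing factor, and *Gins2*, a further helicase partner, had -0.25 and -0.20.

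Of the mitotic kinases, checkpoint genes and regulators of the anaphase-promoting complex, 7 of 9 were tested, 6 were below 0 and the median was -0.21. *Cdc20*, the activator of that complex, lay at 8.05, 8.44 and 7.82 in control and at 7.30, 8.33 and 7.23 with IL-4. Replicate 2 differed little between the conditions, and replicates 1 and 3 were lower with IL-4. Its fold change was -0.48 on the log2 scale, with a standard error of 0.30 (95% interval -1.16 to 0.20, adjusted p = 0.855, and 0.216 with the block). Its 4 probes gave values from -0.48 to -0.07. *Plk1*, a kinase of spindle assembly, was higher with IL-4 in replicate 1 and lower in the others, at 6.66, 8.04 and 7.32 in control and at 6.93, 7.61 and 6.98 with IL-4 (log2 fold change -0.16, standard error 0.33). *Aurka*, the Aurora A kinase of the spindle poles, lay at 6.29, 7.81 and 7.33 in control and at 6.90, 7.25 and 7.40 with IL-4. The spread of *Aurka* was wider within the control group than between the groups, and its fold change was 0.036 (standard error 0.34). *Mad2l1* and *Bub1b*, of the spindle checkpoint, had -0.33 and -0.21, and *Birc5* and *Aurkb*, of the chromosomal passenger complex, had -0.21 and -0.11.

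All 5 tested genes of the spindle, kinetochore and midzone group (of 8 listed) were below 0, with a median of -0.28, or -0.12 in the authors' values. *Nusap1*, a microtubule-binding protein of the spindle, lay at 8.15, 8.56 and 8.03 in control and at 7.72, 8.10 and 7.78 with IL-4. It was lower in each pair, by 0.25 to 0.45 units, and the groups overlapped (log2 fold change -0.38, standard error 0.20, adjusted p = 0.774, and 0.289 with the block). *Prc1*, which bundles midzone microtubules, had the smallest difference of the group, at 8.25, 9.24 and 8.84 in control and at 8.45, 8.84 and 8.74 with IL-4 (-0.10). *Cenpa*, the histone of the centromere, *Tpx2*, which activates Aurora A, and *Kif11*, a spindle motor, had -0.30, -0.28 and -0.18.

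All 6 regulators of transcription and CDK inhibitors were tested, with a median of -0.12, or -0.07 in the authors' values. *Cdkn1a*, which encodes the inhibitor p21, lay at 10.85, 11.16 and 11.37 in control and at 11.42, 11.22 and 11.92 with IL-4. It was higher in each pair but only by 0.061 units in replicate 2, and the groups overlapped. The difference was 0.39 log2 units, with a standard error of 0.22 (adjusted p = 0.820, and 0.316 with the block). By its 3 probes it was 0.34 to 0.47, and for the highest of these every IL-4 array was above every control array (9.76, 9.81 and 9.74, against 9.44, 9.19 and 9.26, adjusted p = 0.482, and 0.173 with the block). *Cdkn1b*, which encodes the inhibitor p27, pointed the other way. It lay at 5.48, 5.18 and 5.56 in control and at 4.89, 5.25 and 5.12 with IL-4 (log2 fold change -0.32, standard error 0.18, adjusted p = 0.816), and the authors' normalized values gave -0.09. *Rb1*, the retinoblastoma gene, *E2f1*, an activating E2F factor, *Cdkn2c*, the inhibitor p18, and *Foxm1*, a driver of mitotic genes, had fold changes of -0.22, -0.15, -0.09 and -0.033.

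**Figure D4:**
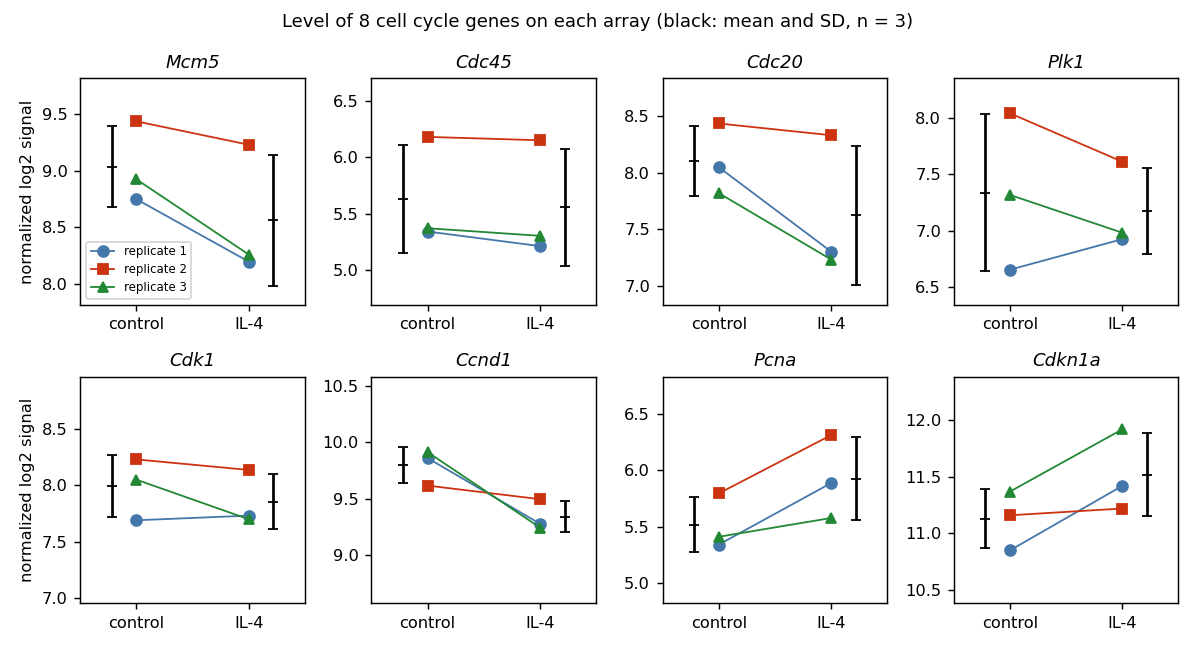
Normalized log2 signal of 8 cell cycle genes on each array, with a line joining the control and the IL-4 array of the same replicate number; black bars give the mean and SD of 3 arrays and each panel spans 2 log2 units. In *Mcm5*, *Cdc45* and *Cdc20* both replicate 2 arrays lie above the other 4, in *Ccnd1* all IL-4 arrays lie below the control arrays, and *Pcna* and *Cdkn1a* are higher with IL-4 in every pair.

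The level of the cell cycle genes went with the replicate number more than that of all genes did. The mean of replicate 2 was the highest of the 3 replicates for 31 of 37 genes (83.8%, against 32.0% of all genes). Both replicate 2 arrays lay above the other 4 arrays for 19 genes (51.4%, against 10.3% of all genes) and below them for 0 (against 12.1%). In limma's moderated F test of replicate number, with treatment in the model, 5 of the 37 genes were called (13.5%, against 5.91% of all genes and 5.25% of probes), all with replicate 2 highest (against 2.85%). Counted by any tested probe, 8 genes were called (21.6%, against 6.69%), the others being *Ccnd3*, *Birc5* and *Cdc20*. At an unadjusted p under 0.05 the F test found 20 genes (54.1%, against 21.3%). The count of 5 depended on the processing, and the share of all probes called moved with it. It was 2 without background correction (3.2% of all probes called), 0 in the authors' normalized values (0.441%) and 0 with no filter on detection (0.219%). It was 9 with a stricter filter (6.7%) and 11 with an intensity trend in the fit (7.32%). A change of filter also changes which genes are tested.

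The 5 called genes were *Mcm5*, *Mcm7*, *Cdc6* and *Cdc45* of replication and *Plk1* of mitosis. *Cdc45* was the clearest case. Its replicate 2 arrays lay at 6.18 in control and 6.15 with IL-4 and the other 4 arrays between 5.21 and 5.37, so that replicate number held 98.9% of its sum of squares and IL-4 0.859% (adjusted p = 0.0194 for replicate number). *Plk1* had the widest range, with replicate means of 6.79, 7.82 and 7.15 for replicates 1, 2 and 3 (adjusted p = 0.0318).

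*Mcm5* had replicate means of 8.47, 9.33 and 8.59 (adjusted p = 0.0379). *Cdc6* had 5.91, 6.59 and 5.67 (adjusted p = 0.0483). *Mcm7* differed in that replicate 3 stood low rather than replicate 2 high, with means of 6.51, 6.55 and 5.65 (adjusted p = 0.0232), and its other probe was not called (adjusted p = 0.255). *Cdc20* missed the threshold by its brightest probe (7.68, 8.38 and 7.53, adjusted p = 0.0532), while its other 3 probes had an adjusted p of 0.00652 to 0.0318.

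Over the 37 genes, the median share of the sum of squares was 64.8% for replicate number, 11.8% for IL-4 and 12.6% for neither, against 49.3%, 14.0% and 21.6% over all genes. With 3 replicate numbers and 2 conditions, a larger share for replicate number is favoured in any gene. The values over all genes are therefore the comparison. Replicate number held more than IL-4 for 33 genes (89.2%, against 72.1%). The exceptions were *Ccnd1*, *Cdt1*, *E2f1* and *Cdkn1b*. The roles were unlike in this respect, since replicate 2 was highest for 12 of 12 replication genes, 7 of 7 mitotic kinase and checkpoint genes and 5 of 5 spindle genes. It was highest for 5 of 7 CDKs and cyclins and for 2 of 6 regulators and CDK inhibitors. By array, the median deviation of the 37 genes from their 6-array mean was -0.051, 0.38 and 0.0065 in control replicates 1, 2 and 3 and -0.27, 0.22 and -0.27 with IL-4. The highest array was control replicate 2 for 23 genes and IL-4 replicate 2 for 7. The lowest was IL-4 replicate 1 for 14 genes, IL-4 replicate 3 for 12 and control replicate 1 for 8.

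Replicate 2 also differed in its cell type markers. For neutrophils 9 of 10 listed markers were tested, and all 9 were higher on both replicate 2 arrays than on the other 4 and were called by the F test. Their summed normalized signal was 34100 and 34370 in replicate 2 and 7258 to 10240 elsewhere, while *Mpo* of the same list was not tested. For mast cells and basophils 2 of 6 were tested (*Cpa3* and *Gata2*), with sums of 3830 and 4248 in replicate 2 against 184 to 637, and *Cma1*, *Mcpt8* and *Ms4a2* were detected on 2 arrays each. Stem and progenitor markers (7 of 8 tested, 3 of them above and 2 below the other 4 arrays) summed to 569 and 572, against 317 to 341. *Ctsg* was the brightest of them in replicate 2 and differed most, at 7.82 and 8.07 against 5.01 to 5.68. It encodes a granule protease also made in the neutrophil lineage, and the neutrophil markers *Elane* and *Prtn3* were likewise higher in replicate 2. *Kit* and *Sox4* were the 2 below. The sum leans on *Ctsg* and does not speak for the whole list.

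Most macrophage and monocyte markers moved the other way, but not all. Of 9 tested, 6 were lower on both replicate 2 arrays and 2 higher. The higher ones were *Adgre1* (replicate means 10.01, 10.82 and 9.53) and *Ly6c1* (9.25, 10.63 and 9.68). The sums of the 9 were 6850 and 7373 in replicate 2, against 7894 to 10330. DC markers summed to 37790 and 38480, against 39590 to 41920. The brightest, *Cd74* and *H2-Ab1*, weigh most in this sum, and *Cd74* hardly differed, with replicate means of 14.04, 14.02 and 14.0. The sum therefore does not speak for the whole list. Of the 9 tested DC markers, 1 was above the other 4 arrays (*Zbtb46*) and 1 below (*H2-Ab1*). The pair of erythroid genes tested was not lower in sum, at 252 and 262 against 143 to 216. Of this pair *Hba-a1*, detected on 3 arrays, was higher on both replicate 2 arrays, and *Car2* lay within the range of the other 4. The neutrophil sums of the conditions overlapped, with control at 8815 to 34100 and IL-4 at 7258 to 34370. The part of these cells in the differences between replicates was not tested either.

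The same comparison was read in 131 further genes of the cycle from 3 companion lists, of which 100 were tested. Of 37 tested genes of replication (of 44 listed, such as those for the origin recognition complex, DNA polymerases and nucleotide supply), 27 were below 0 with IL-4, with a median of -0.13 and 0 called. Of 38 tested genes of mitosis (of 52), 26 were below 0, with a median of -0.15, which was -0.038 in the authors' values. Within pair 2 the median of this list was 0.024, with 17 below 0. Of 25 tested genes of G1 control (of 35), 14 were below 0, with a median of -0.028 and 0 called. Over all genes, 52.8% were below 0, and 53.2% within pair 2.

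Of the 100 genes 1 was called with IL-4 (0.123% of all genes), *Mad1l1* of the mitosis list, a partner of *Mad2l1* at the spindle checkpoint, and it rose. It lay at 5.80, 5.99 and 5.84 in control and at 7.36, 7.10 and 7.30 with IL-4, with no overlap and little spread. The log2 fold change was 1.38, with a standard error of 0.16 (adjusted p = 0.0207, and 0.00081 with the block). Without the block, the call rests on few arrays and on the processing. It was lost in the authors' normalized values (0.85, adjusted p = 0.0560) and with no detection filter (adjusted p = 0.0581). Of the 6 arrays, leaving out any 1 except IL-4 replicate 2 also ended it, with an adjusted p of 0.0518 (without control replicate 2) to 0.187 (without IL-4 replicate 1) and a fold change of 1.32 to 1.43. *Mad2l1* itself was at 8.00, 8.54 and 8.03 in control and at 7.43, 8.24 and 7.91 with IL-4 (-0.33, adjusted p = 0.902).

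By replicate number, the companion lists divided as the roles of the first list did. Replicate 2 was highest for 25 of 37 replication genes and 30 of 38 mitosis genes, but for 9 of 25 genes of G1 control (against 32.0% of all genes). Both replicate 2 arrays stood above the rest for 15, 21 and 3 genes of these lists (against 10.3% of all genes). The F test called 3, 6 and 2 of the 37, 38 and 25 tested (against 5.91% of all genes).

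**Figure D5:**
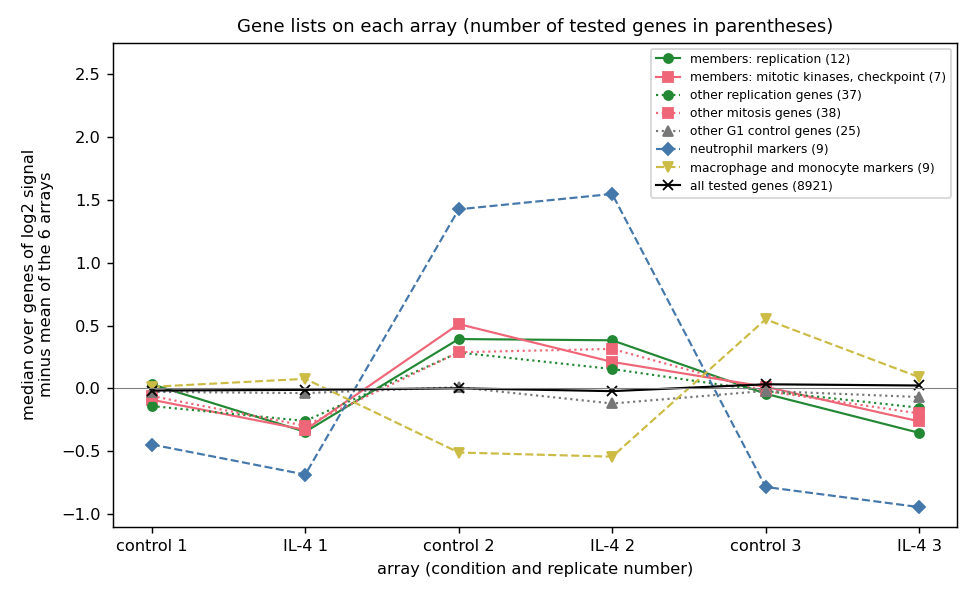
Median over the tested genes of each list of the log2 signal minus the gene's mean over the 6 arrays, by array in order of replicate number; solid and dotted lines are cell cycle lists, dashed lines are neutrophil and macrophage or monocyte markers, and crosses are all 8921 tested genes. The replication and mitosis lists and the neutrophil markers are highest in replicate 2, where the macrophage and monocyte markers are lowest, and the genes of G1 control stay near 0.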

How the data were processed

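RNA of 6 BMDC cultures was read on Illumina MouseWG-6 arrays. As deposited, each of 45281 probes has a bead signal intensity, not normalized, and a detection p-value. The authors also deposited log2 values of 19293 probes, stabilized in variance and spline normalized with lumi, which served here as an alternative. The sources used here name no version of lumi or of the authors' limma. The authors' own comparison was not used.

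The intensities were background-corrected and quantile normalized with neqc (limma 3.58.1 in R 4.3.3, offset 16) and fitted with lmFit and eBayes, two-sided, with an adjusted p threshold of 0.05. The study's methods name linear modelling in limma and give no block, and the main fit was therefore unpaired, on these intensities rather than on the authors' values. The script for the fits was tested on simulated data. Figures used matplotlib 3.10.9 in Python 3.11.15. Gene symbols came from the platform annotation of the authors' table, in which 16243 probes have 1 symbol and 8 have several. Of the tested probes, 13600 had 1 symbol, and the others went into the fits without a gene name. A count over all genes takes 1 probe per gene, that with the highest mean signal.

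Whether a number marks a mouse is not stated in the labels. Deviations from the group means correlated at 0.29, 0.55 and 0.62 for arrays sharing a number and at -0.55 to 0.096 for the other combinations. Each shared number thus passed the threshold of 0.1. The numbers were therefore taken to pair the arrays. Residual degrees of freedom were 4 without the block and 2 with it, and the precision of all values is limited by the 6 arrays.

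Genes given by array or replicate mean were the largest rise and fall of each role group and the 8 widest ranges of replicate means. The markers *Pcna* and *Cdk1* and called genes of the companion lists were given too. *Cdc6* and *Mcm7* were given by replicate means, and *Cdc45* by its replicate 2 arrays and the range of the others. *Cdt1* was added for its non-overlapping groups, *Mad2l1* beside *Mad1l1* and the third probe of *Cdkn1a* after their values were seen. *Ccnd1bp1* of the companion lists matched no probe. The members and lists were chosen with earlier results of these data known. Alternatives were another offset, no background correction, the authors' values, other detection filters, an intensity trend, another probe per gene, the replicate block and leaving out arrays or pairs.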

Additional observations from a re-analysis of the deposited data

How the results depend on the processing

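The alternatives tested the same 37 genes unless they changed the detection filter, and with no filter *Ccne2* entered as well. With IL-4, 0 cell cycle genes were called under every alternative except the replicate block without replicate 2, a fit added after seeing the data. It called 1 gene, *Cdc20* (log2 fold change -0.67, adjusted p = 0.0428 from limma), with *Ccnd1* at 0.0542 and *Mcm5* at 0.0598. The replicate block itself left 0 called, while calls over all probes went from 18 to 365, 4 cell type markers among them. The median of -0.18 moved to -0.10 without background correction and to -0.12 in the authors' normalized values, with and without the block. It ran from -0.38 (without IL-4 replicate 2) to -0.052 (without control replicate 2) when arrays were left out, with -0.25 without pair 2 and -0.13 without pair 3 in the blocked fit. The count below 0 ran from 23 (without control replicate 2) to 34 (without control replicate 1). The ends of both ranges came from unpaired fits that kept a replicate number in 1 group only. They therefore also hold differences between replicates. For replicate number, the 5 genes called became 2 without background correction, 0 in the authors' values, 9 with detection p under 0.01 on all 6 arrays, 0 with no detection filter and 11 with an intensity trend. *Mad1l1* was called with the block (adjusted p = 0.00081 from limma). Without the block it lost its call in the authors' values and with no detection filter. When arrays were left out its fold change ran from 1.29 to 1.51.

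The sign of genes near 0 changed. *Aurka* was -0.0067 without background correction, -0.0052 in the authors' values in both fits and -0.25 in the blocked fit without replicate 1. *Ccne1* was 0.000698 without background correction, and 0.049 and 0.14 in the blocked fit without replicate 2 or 3, where *Prc1* was 0.049 without replicate 2. *Ccnd2* was -0.18 by its dimmest probe. When arrays were left out, values ran from -0.018 to 0.40 for *Ccnd2*, from -0.39 to 0.37 for *Aurka*, from -0.36 to 0.13 for *Prc1* and from -0.50 to 0.19 for *Plk1*. They ran from -0.25 to 0.32 for *Ccne1*, from -0.54 to 0.018 for *Cdc6* and from -0.37 to 0.20 for *Cdc45*. Apart from the leaving out of arrays, the cause of these changes was not tested. With 3 arrays a group, the unpaired intervals of all genes but *Ccnd1* held 0. Those differences could not be told from 0 in that fit. With the block, 9 of the 37 genes had an unadjusted p under 0.05 in limma, and 0 were called.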
